A study of Mus musculus with 6 samples.

Results

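The tricarboxylic acid (TCA) cycle, complex II and the enzymes that feed glutamate and amino acid carbon into the cycle were followed through 36 genes in mouse Th17 cells with and without a knockout of pyruvate dehydrogenase (PDH). The genes were taken from a list of enzyme names and matched to the deposited table by unversioned Ensembl gene ID. All 36 were found among its 15452 genes, and all 36 passed the filter on low counts. Messenger RNA came from 6 libraries. The 3 PDH knockout libraries were made from cells of mice with floxed PDH alleles (PDHfl/fl) and CD4 Cre, a transgene that recombines floxed alleles in the T cell lineage. The 3 WT libraries were made from cells of mice with the same floxed alleles and no Cre, so Cre itself and the deletion cannot be told apart. For both groups, magnetic bead sorting gave naive CD4+ T cells out of spleen and lymph nodes. The cells were kept for 3 days with plate-bound anti-CD3 (5 μg/mL), anti-CD28 (1 μg/mL), anti-IFNγ (5 μg/mL), IL-6 (30 ng/mL) and TGFβ (2 ng/mL), a mix that drives naive cells to the Th17 fate. The labels give no age or sex, do not name the floxed PDH gene, and spell the locus PHD in the sample titles and PDH in the genotype field. Whether each replicate had its own animal is not given, so p-values here speak only of spread among these libraries, and that spread may be technical.

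The TCA cycle oxidises acetyl-CoA in mitochondria and passes the electrons to the respiratory chain, partly through complex II (succinate dehydrogenase), which belongs to both pathways. PDH makes acetyl-CoA from pyruvate and so supplies the cycle with glucose carbon. Carbon also enters further along: glutamine is converted to glutamate and then to 2-oxoglutarate, and the breakdown of branched-chain amino acids and of propionate ends in part at succinyl-CoA. Activated T cells take up glutamine and use it in this way while citrate leaves the cycle for the synthesis of lipids.

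Library totals, in units of 1e6 counts, ran from 33.80 to 40.41, and the lowest count of any of the 36 genes in a library was 112. Levels are given as CPM (TMM-scaled counts per 1e6) and differences on the log2 scale, knockout over WT, with ± SE. Calls are at an adjusted p under 0.05 in edgeR's quasi-likelihood test, adjusted by Benjamini-Hochberg over all 15361 tested genes. Pdha1, the PDH E1 alpha subunit gene, was at 193 ± 6.33 CPM in knockout and 248 ± 10.2 CPM in WT (SD, n = 3 each). A count summed over all exons does not reveal whether 1 exon was deleted. The T cell markers Cd3e, Cd3g, Cd4 and Trac summed to between 725 and 824 CPM in knockout and between 1090.0 and 1140.0 CPM in WT libraries, by library totals. Of the 4 Th17 markers listed, the 3 given here, Il17a, Il17f and Il23r, summed to between 301 and 448 CPM in knockout and between 676 and 916 CPM in WT. In bulk RNA, fewer cells of a type and less RNA per cell cannot be told apart. Of the 8 B cell markers listed all were detected. Without Ighm they summed to 4.29, 47.5 and 76.7 CPM in knockout replicates 1 to 3 and to 5.19, 25.6 and 4.97 CPM in WT replicates 1 to 3, and their part in the results was not tested except as given below. The 5 myeloid markers measured summed to between 5.18 and 9.29 CPM in knockout and between 8.68 and 22.1 CPM in WT libraries. The 2 CD8 T cell markers summed to between 5.58 and 14.9 CPM in knockout and between 8.68 and 11.3 CPM in WT, and the 2 dendritic cell markers measured to between 1.09 and 6.12 CPM in knockout and between 0.479 and 2.33 CPM in WT. In knockout replicate 2 a single entry with no gene name took 4.95% of the counts, against 0.141% and 0.0796% in the other knockout libraries and 0.115% to 0.215% in WT.

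Most of the 36 genes were lower in knockout cells. The test called 26 of the 36 genes, against 47.6% of all tested genes. Of these, 23 were lower (63.9% of the 36) and 3 higher (8.33%), against 24.5% and 23.1% of all tested genes, and 10 were not called. The 36 genes were chosen with earlier results of these data known, so their shares are a description and not an independent test. The median log2 fold change of the 36 genes was -0.34, beside 0.01 for all tested genes. Knockout and WT libraries did not overlap for 28 of the 36 genes (77.8%), against 58.2% of all tested genes, and these 28 included all 26 called genes. Knockout was the lower group in 25 of the 28 and the higher in 3, against 29.4% and 28.8% of all tested genes. The decreases were moderate. Log2 fold changes of the genes called lower ran from -1.07 to -0.23, and in 1 gene, Gls2, the level in knockout was under 0.5 of that in WT. Of all calls, 59.95% were higher with upper-quartile scaling and 48.53% with TMM scaling. Upper-quartile scaling called 20 of the 36 genes lower and 4 higher. Tested against a fold change of 1.2 in place of no change, 15 were lower and 2 higher.

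**Figure D1:**
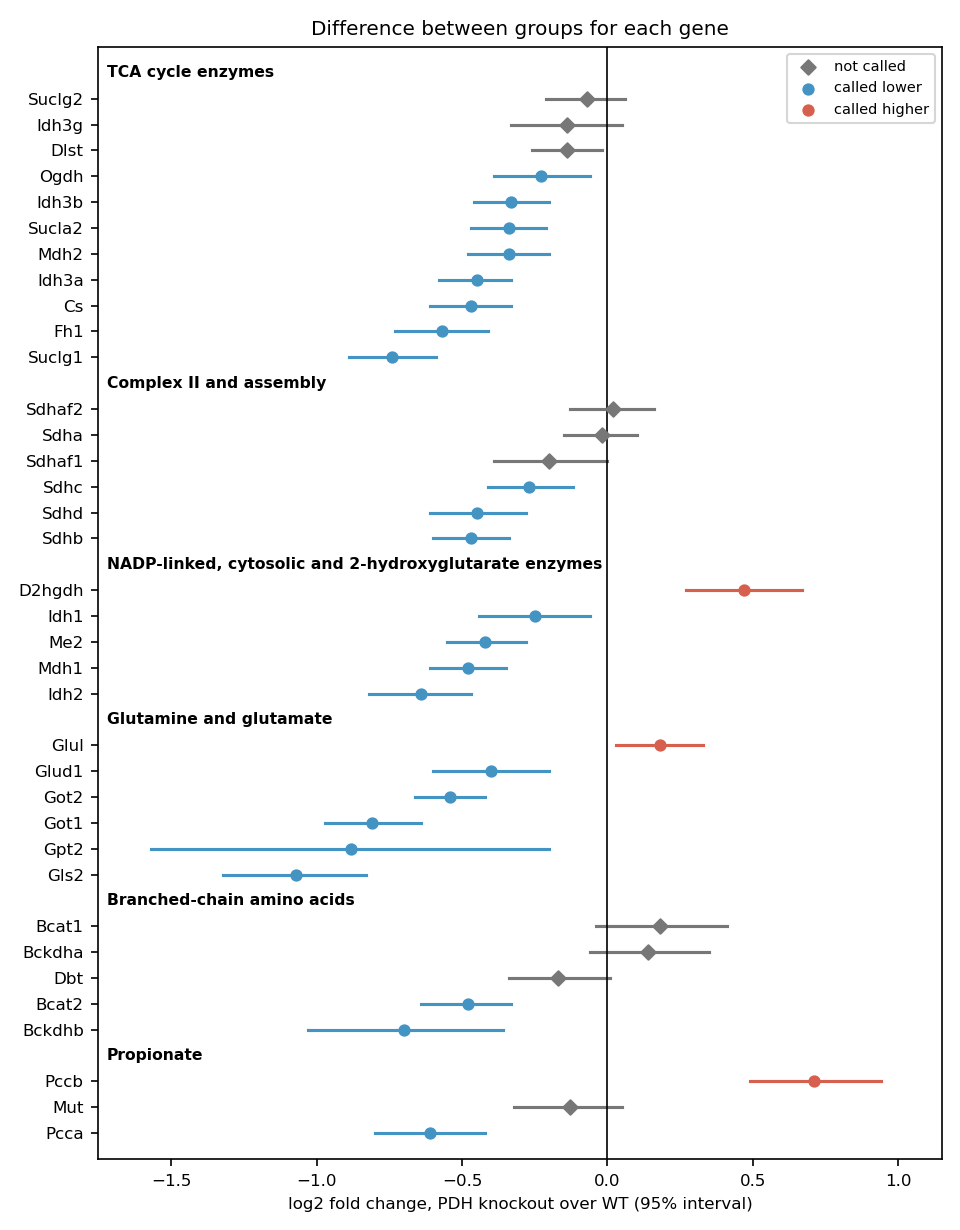
Log2 fold change of PDH knockout over WT for each of the 36 genes (points) with its 95% interval (lines), ordered within the 6 groups of enzymes; circles mark genes called lower or higher and diamonds mark genes not called. The 23 genes called lower lie between -1.07 and -0.23, and the 3 called higher, Glul, D2hgdh and Pccb, lie at 0.18, 0.47 and 0.71.

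Levels per kilobase of exon spanned from 3.16 CPM per kb for Bckdhb to 238 CPM per kb for Mdh2 in WT cells. Mdh2, mitochondrial malate dehydrogenase, was first in both groups, at 188 CPM per kb in knockout and 238 in WT. In WT it was followed by Cs (citrate synthase) at 134, Got2 (mitochondrial aspartate aminotransferase) at 123 and Sdhb at 112 CPM per kb. In knockout Sdha, at 101 CPM per kb, took the second place ahead of Cs at 96.9, having been seventh in WT at 102. The lowest place in both groups was held by Bckdhb, at 1.95 CPM per kb in knockout and 3.16 in WT. Exon lengths came from GENCODE M21 and the release used upstream was another one, so these levels order the genes only roughly.

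**Figure D2:**
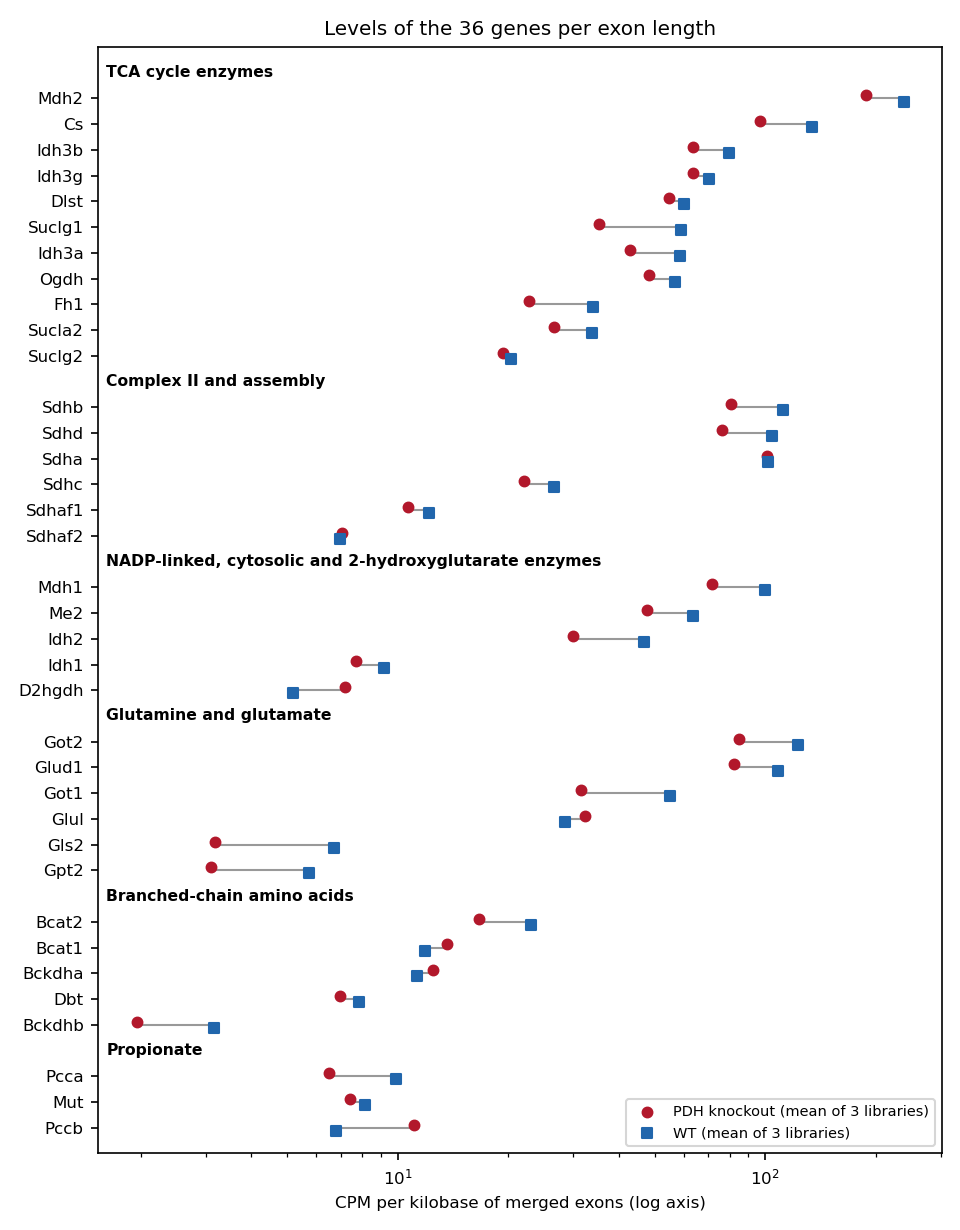
Mean CPM per kilobase of merged exons (log axis) of each of the 36 genes in PDH knockout (circles) and WT (squares), 3 libraries each, ordered by the WT level within each group of enzymes. Sdha lies at 101 in knockout and 102 in WT while Sdhb and Sdhd lie lower in knockout, and Pccb and Pcca exchange places.

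The enzymes of the cycle itself were lower or not called. Of 11 genes, 8 fell (72.7%) and none rose, against 24.5% lower and 23.1% higher of all tested genes. The median over all 11 was -0.34 on the log2 scale. Suclg1, the alpha subunit shared by both forms of succinyl-CoA synthetase, fell most. Its levels were 55.4, 54.0 and 51.8 CPM in the knockout libraries against 89.8, 95.8 and 83.5 CPM in the WT libraries. The groups were far apart, and the decrease of 40.1% corresponded to a log2 fold change of -0.74 ± 0.07 (edgeR, adjusted p = 4.27e-05). Fh1, fumarase, which hydrates fumarate to malate, had 55.1, 62.4 and 62.8 CPM in knockout against 92.1, 91.8 and 84.1 CPM in WT. Every knockout value was below every WT value (-0.57 ± 0.07, edgeR adjusted p = 0.00022).

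The enzymes at the entry of the cycle fell as well. Cs, which joins acetyl-CoA to oxaloacetate, was at 283 ± 8.95 CPM in knockout and 392 ± 20.1 CPM in WT (-0.47 ± 0.06). The NAD-linked isocitrate dehydrogenase is built from the products of Idh3a, Idh3b and Idh3g. The catalytic subunit gene Idh3a fell by 0.45 and Idh3b by 0.33 on the log2 scale. Idh3g was not called: it was at 84.8 ± 6.69 CPM in knockout and 93.4 ± 9.62 CPM in WT, the groups overlapped, and its 95% interval ran from -0.33 to 0.05.

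The 2-oxoglutarate dehydrogenase complex differed less. Ogdh, its E1 subunit gene, was called lower at -0.23 ± 0.07 (edgeR, adjusted p = 0.0286), with 216 ± 16 CPM in knockout and 252 ± 16.6 CPM in WT. That call was lost when knockout replicate 1 or 2 or WT replicate 1 or 3 was left out (adjusted p from 0.0608 to 0.122), when genes needed 50 counts in 3 libraries (adjusted p = 0.0671), with the B cell marker covariate (adjusted p = 0.0724), with library totals (adjusted p = 0.113) and with upper-quartile factors, where the log2 fold change was -0.15 (adjusted p = 0.148). Dlst, the E2 subunit gene, just missed the threshold at -0.14 ± 0.06 (edgeR, adjusted p = 0.0614), although its groups did not overlap, and it passed without WT replicate 3 (adjusted p = 0.0463).

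Succinyl-CoA synthetase pairs the Suclg1 product with 1 of 2 beta subunits, Sucla2 in the ATP-forming enzyme and Suclg2 in the GTP-forming enzyme. Sucla2 had 60.9, 59.8 and 58.0 CPM in knockout against 76.4, 76.7 and 73.1 CPM in WT. It fell by 0.34 on the log2 scale, with a narrow spread in both groups (edgeR, adjusted p = 0.00103). Suclg2 had 74.9, 72.1 and 71.3 CPM in knockout against 76.7, 72.9 and 80.2 CPM in WT. These groups overlapped, and the log2 fold change was -0.07 with a 95% interval from -0.21 to 0.06 (edgeR, adjusted p = 0.328). At the end of the cycle Mdh2 had 279.7, 281 and 259 CPM in knockout against 329, 363 and 347 CPM in WT. The groups did not overlap and Mdh2 fell by 0.34 on the log2 scale (edgeR, adjusted p = 0.00186).

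**Figure D3:**
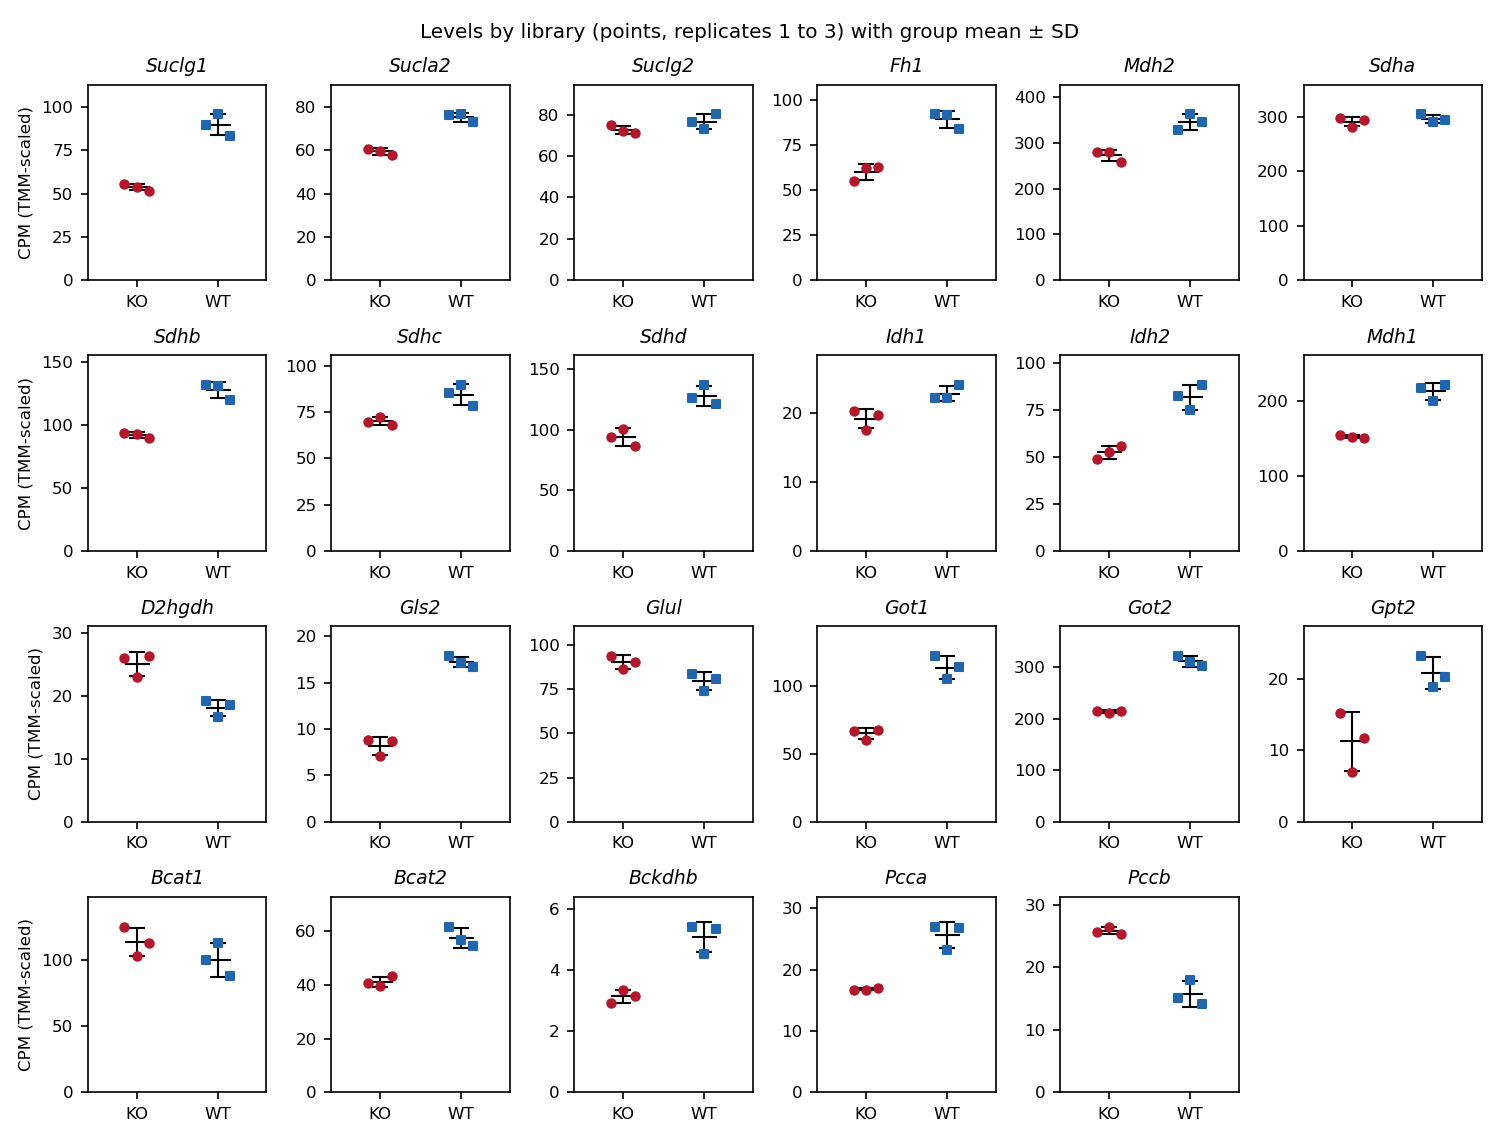
TMM-scaled CPM in each library (points, replicates 1 to 3 from left to right) of 23 of the 36 genes, with PDH knockout (KO, circles) left of WT (squares) and the group mean ± SD in black; every vertical axis starts at 0. The groups do not overlap for Suclg1, Gls2 or Got1, Pccb is higher in every knockout library, and Suclg2, Sdha and Bcat1 overlap.

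Complex II did not move as a unit. Of its 4 core subunit genes, Sdhb, Sdhc and Sdhd fell and Sdha was not called. Of all tested genes 24.5% were lower and 52.4% were not called. Sdha encodes the flavoprotein that oxidises succinate, and it had 299, 282 and 295 CPM in knockout against 305, 291 and 295 CPM in WT. The groups overlapped, with a log2 fold change of -0.02 and a 95% interval from -0.15 to 0.10 (edgeR, adjusted p = 0.742). Its direction turned with the scaling, to 0.054 with upper-quartile factors and 0.02 with library totals. Sdhb, the iron-sulfur subunit that receives the electrons, had 94.0, 92.9 and 89.8 CPM in knockout against 132, 131 and 120.4 CPM in WT. That is a decrease of 27.8% with no overlap (-0.47 ± 0.06, edgeR adjusted p = 0.000233). Sdhc and Sdhd encode the membrane anchor that holds the ubiquinone site. Sdhd had 94.5, 101 and 86.6 CPM in knockout against 127, 137 and 121 CPM in WT, and Sdhc had 69.9, 72.5 and 68.3 CPM in knockout against 85.5, 89.7 and 78.4 CPM in WT. Neither gene's groups overlapped, and the log2 fold changes were -0.45 ± 0.07 and -0.27 ± 0.07 (edgeR, adjusted p = 0.000962 and 0.00801). The Sdhc call ended without WT replicate 2 and knockout replicates 2 and 3, the libraries with raised B cell markers (-0.23, adjusted p = 0.0764), with knockout replicate 1 then alone in its group.

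The complex II assembly factor genes among the 36, Sdhaf1 and Sdhaf2, were not called. Sdhaf1, which helps to put the iron-sulfur clusters into the Sdhb product, was at 26.6 ± 2.21 CPM in knockout and 30.4 ± 2.22 CPM in WT (-0.20 ± 0.09, edgeR adjusted p = 0.0901). With the summed B cell markers as a covariate Sdhaf1 passed (-0.27, adjusted p = 0.0354). Sdhaf2, which is needed to attach the flavin to the Sdha product, was at 47.9 ± 2.26 CPM in knockout and 47.4 ± 2.15 CPM in WT, and its 95% interval ran from -0.13 to 0.16 on the log2 scale. The windows around the start sites of Sdha and Sdhb are printed because these subunit genes, partners in a single enzyme, gave different results. Sequences are those of RefSeq, build GRCm38.p6, 5′ to 3′ on the gene's strand, from 250 bases before to 50 bases after the start site. Capitals mark matches to the NRF1 letters GCGCANGCG on either strand, where NRF1 is a transcription factor known for its sites in genes of mitochondrial proteins.
Sdha promoter, chr13:74350191-74350490, minus strand: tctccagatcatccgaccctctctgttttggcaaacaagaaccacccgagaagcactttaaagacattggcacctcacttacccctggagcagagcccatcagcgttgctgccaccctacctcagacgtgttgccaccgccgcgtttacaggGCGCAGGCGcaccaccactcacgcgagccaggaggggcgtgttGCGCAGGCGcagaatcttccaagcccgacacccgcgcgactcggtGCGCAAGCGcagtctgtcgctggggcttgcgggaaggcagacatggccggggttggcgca
Sdhb promoter, chr4:140961021-140961320, plus strand: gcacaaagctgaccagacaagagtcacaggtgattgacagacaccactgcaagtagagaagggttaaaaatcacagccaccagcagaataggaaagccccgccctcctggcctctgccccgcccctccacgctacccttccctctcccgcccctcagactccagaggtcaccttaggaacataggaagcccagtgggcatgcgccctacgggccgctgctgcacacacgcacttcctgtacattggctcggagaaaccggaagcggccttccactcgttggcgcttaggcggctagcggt
The Sdha window held 3 exact matches and the Sdhb window none, nor did either hold any of the other letters searched. The window of Sdhd, which fell like Sdhb, held 1 NRF1 match. A match in a window is a description and not a binding site.

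The next group held 4 other enzymes that use isocitrate or malate and an enzyme of 2-hydroxyglutarate. Its 4 genes of isocitrate or malate fell, and D2hgdh rose, against 24.5% lower and 23.1% higher of all tested genes. Idh2, the NADP-linked isocitrate dehydrogenase of mitochondria, had 48.9, 52.5 and 55.5 CPM in knockout against 82.1, 74.8 and 88.1 CPM in WT. The groups were well apart (-0.64 ± 0.08, edgeR adjusted p = 0.000188). Its cytosolic counterpart Idh1 had 20.2, 17.6 and 19.6 CPM in knockout against 22.2, 22.1 and 23.99 CPM in WT. Idh1 was called lower at -0.25 ± 0.08 (edgeR, adjusted p = 0.0333), and that call was lost when knockout replicate 2 or 3 or WT replicate 1 or 3 was left out (adjusted p from 0.0634 to 0.114), with library totals (adjusted p = 0.113), with upper-quartile factors (adjusted p = 0.135), when genes needed 50 counts in 3 libraries (adjusted p = 0.0654), with the B cell marker covariate (adjusted p = 0.115) and without the 3 libraries with raised B cell markers (adjusted p = 0.258).

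Mdh1, the cytosolic malate dehydrogenase of the malate-aspartate shuttle, had 154, 152 and 150.2 CPM in knockout against 217, 199.9 and 221 CPM in WT. It fell by 28.4% with no overlap (-0.48 ± 0.06, edgeR adjusted p = 0.000201). Me2, mitochondrial malic enzyme, which makes pyruvate from malate, was at 126 ± 7.77 CPM in knockout and 168 ± 3.61 CPM in WT (-0.42 ± 0.06, edgeR adjusted p = 0.000536). D2hgdh, which oxidises D-2-hydroxyglutarate back to 2-oxoglutarate, went the other way, with 26.0, 23.0 and 26.4 CPM in knockout against 19.2, 16.7 and 18.5 CPM in WT. All knockout libraries were above all WT libraries, and the increase of 38.6% was called under all 19 alternatives run (0.47 ± 0.09, edgeR adjusted p = 0.0021).

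All 6 genes of glutamine and glutamate metabolism among the 36 were called. There were 5 lower (83.3%) and 1 higher (16.7%), against 24.5% and 23.1% of all tested genes. Gls2, a glutaminase that releases glutamate from glutamine, had 8.79, 7.04 and 8.76 CPM in knockout against 17.9, 17.2 and 16.7 CPM in WT. This was the largest decrease of the 36 genes (-1.07 ± 0.11, edgeR adjusted p = 7.97e-05), at a low level in both groups. Glud1, glutamate dehydrogenase, which turns glutamate into 2-oxoglutarate, was at 278 ± 14.8 CPM in knockout and 367 ± 44.2 CPM in WT (-0.40 ± 0.09, edgeR adjusted p = 0.00507). Glul, glutamine synthetase, which makes glutamine from glutamate, was called higher. Its levels were 94.0, 86.4 and 90.8 CPM in knockout against 83.9, 74.1 and 81.1 CPM in WT. The groups did not overlap but lay close together (0.18 ± 0.07, edgeR adjusted p = 0.0445). The Glul call was lost when any 1 of the 6 libraries was left out (adjusted p from 0.0531 to 0.130), by limma-voom (adjusted p = 0.052) and without the 3 libraries with raised B cell markers (adjusted p = 0.0872).

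Aminotransferases pass the amino group of glutamate to an oxo acid and release 2-oxoglutarate. Got1, the cytosolic aspartate aminotransferase, had 67.1, 60.2 and 67.4 CPM in knockout against 122, 105 and 114 CPM in WT. It fell by 42.8%, with a wide gap between the groups (-0.81 ± 0.07, edgeR adjusted p = 4.7e-05). Got2, the mitochondrial form, had 216, 212 and 215 CPM in knockout against 322, 309 and 302 CPM in WT. Got2 fell by 31.2%, with no overlap (-0.54 ± 0.05, edgeR adjusted p = 7.91e-05). Gpt2, mitochondrial alanine aminotransferase, had 15.2, 6.93 and 11.7 CPM in knockout against 23.3, 19.0 and 20.4 CPM in WT. Knockout replicate 2 was the lowest and the knockout libraries spread widely (-0.88 ± 0.28, edgeR adjusted p = 0.0428). The Gpt2 call was lost when knockout replicate 3 or any WT library was left out (adjusted p from 0.107 to 0.123). Library totals (adjusted p = 0.074), upper-quartile scaling (adjusted p = 0.0579) and the B cell marker covariate (-0.70, adjusted p = 0.0635) also lost it. The call held without knockout replicate 1 (-1.17, edgeR adjusted p = 0.00552) and without knockout replicate 2 (-0.63, edgeR adjusted p = 0.00698). Without the 3 libraries with raised B cell markers, with knockout replicate 1 then alone in its group, the log2 fold change was -0.52.

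Genes of branched-chain amino acid breakdown split by enzyme and by subunit. Of 5 genes, 2 fell, none rose and 3 were not called, against 24.5% lower and 23.1% higher of all tested genes. Bcat2, the mitochondrial branched-chain aminotransferase, had 40.6, 39.7 and 43.3 CPM in knockout against 61.7, 56.6 and 54.4 CPM in WT. The groups did not overlap (-0.48 ± 0.07, edgeR adjusted p = 0.000504). The cytosolic form Bcat1 had 125, 103 and 112 CPM in knockout against 99.5, 113 and 87.5 CPM in WT. Here the groups overlapped (0.18 ± 0.10, edgeR adjusted p = 0.162). Bcat1 passed as higher without WT replicate 2 (0.28, adjusted p = 0.0347), under upper-quartile scaling (adjusted p = 0.0417) and without the 3 libraries with raised B cell markers (0.42, adjusted p = 0.0108).

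The branched-chain oxo acid dehydrogenase complex, which commits these amino acids to oxidation, has E1 subunits from Bckdha and Bckdhb and an E2 subunit from Dbt. Bckdhb had 2.92, 3.35 and 3.17 CPM in knockout against 5.43, 4.53 and 5.34 CPM in WT. It was the lowest of the 36 genes and fell by 38.3% (-0.70 ± 0.15, edgeR adjusted p = 0.00438). Bckdha was at 23.7 ± 2.61 CPM in knockout and 21.4 ± 0.463 CPM in WT (0.14 ± 0.09, edgeR adjusted p = 0.221), and passed as higher without knockout replicate 1 (0.23, adjusted p = 0.0453). Dbt was at 23.0 ± 1.56 CPM in knockout and 25.9 ± 0.916 CPM in WT (-0.17 ± 0.08, edgeR adjusted p = 0.105).

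Propionyl-CoA carboxylase, the enzyme that turns propionyl-CoA into methylmalonyl-CoA on the way to succinyl-CoA, is built from the products of Pcca and Pccb. These genes moved in opposite directions. Pccb had 25.7, 26.5 and 25.4 CPM in knockout against 15.2, 18.04 and 14.1 CPM in WT. It had the largest increase of the 36 genes, 64.0%, with no overlap (0.71 ± 0.10, edgeR adjusted p = 0.000407). Pcca had 16.7, 16.7 and 17.0 CPM in knockout against 27.0, 23.2 and 26.8 CPM in WT. It fell by 34.4%, again with no overlap (-0.61 ± 0.08, edgeR adjusted p = 0.000384). Both calls stood under all 19 alternatives run. Methylmalonyl-CoA mutase, encoded by Mut, catalyses the last step to succinyl-CoA and was not called, with 27.3 ± 0.472 CPM in knockout and 29.9 ± 2.91 CPM in WT. Mut passed as lower without WT replicate 2 (-0.21, adjusted p = 0.0491). The windows of Pccb and Pcca are printed because their genes moved apart, from RefSeq and with capitals as above. Of the Pcca windows in RefSeq the downstream one is shown.
Pccb promoter, chr9:101034835-101035134, minus strand: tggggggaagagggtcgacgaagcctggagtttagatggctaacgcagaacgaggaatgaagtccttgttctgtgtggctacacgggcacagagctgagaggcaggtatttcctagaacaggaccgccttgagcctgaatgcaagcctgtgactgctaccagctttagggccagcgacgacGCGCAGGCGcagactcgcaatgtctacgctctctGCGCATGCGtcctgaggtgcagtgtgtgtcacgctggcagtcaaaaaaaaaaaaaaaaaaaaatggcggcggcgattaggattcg
Pcca promoter, chr14:122534078-122534377, plus strand: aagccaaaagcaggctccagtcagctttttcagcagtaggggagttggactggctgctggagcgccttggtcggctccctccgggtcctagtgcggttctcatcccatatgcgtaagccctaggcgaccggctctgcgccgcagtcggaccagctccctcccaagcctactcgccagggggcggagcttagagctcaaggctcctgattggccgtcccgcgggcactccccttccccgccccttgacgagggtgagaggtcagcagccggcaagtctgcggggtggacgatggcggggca
The Pccb window held 2 NRF1 matches and neither Pcca window held any.

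Windows were found for 30 of the 36 genes. Besides the NRF1 letters, those searched on both strands were TCAAGGTCA (estrogen-related receptors), CACGTG (E-box), TGACGTCA (CREB) and CCGGAAGT (GABPA and other ETS factors), each counted even where it overlapped another. NRF1 letters occurred for 5 of the 30 genes (16.7%), in a window of Ogdh, Pccb, Sdha, Sdhd or Sucla2. Of all 27025 genes with a window 7.03% held them, or 6.25% of all windows. That set takes in genes whether or not they are in the deposited table, so it is unlike the 30 genes, and the difference was not tested. Of these 5 genes Pccb rose, Ogdh, Sdhd and Sucla2 fell and Sdha was not called. The receptor letters were found for Sdhd, the E-box for Ogdh, the CREB letters for Mdh2 and Ogdh and the ETS letters for Dlst. The CREB letters were thus found for 6.67% of the 30 genes and each of the other 3 for 3.33%. Of all genes with a window, 0.466% held the receptor letters, 8.09% the E-box, 2.03% the CREB letters and 4.31% the ETS letters.

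Ratios of paired genes within a library do not depend on how libraries are scaled. They were taken as log2 of one count over the other, and with 3 libraries in each group the smallest p that the exact two-sided permutation test can give is 0.1. The ratio of Suclg2 to Sucla2 was 0.30, 0.27 and 0.30 in the knockout libraries and 0.01, -0.07 and 0.13 in the WT libraries. The counts of the GTP-form subunit were thus 1.22 times those of the ATP-form subunit in knockout and 1.02 times in WT, with no overlap (exact p = 0.1). Counts take no account of exon length, so they do not order the 2 genes by level. Per kilobase of exon, Suclg2 lay below Sucla2 in both groups. Their levels were 19.3 and 26.7 CPM per kb in knockout and 20.4 and 33.8 in WT. The ratio of Bcat1 to Bcat2 was 1.62, 1.38 and 1.38 in knockout and 0.69, 0.99 and 0.69 in WT. It was higher in every knockout library, by 0.67 on average (exact p = 0.1). The ratio of Idh1 to Idh2 was -1.27, -1.58 and -1.50 in knockout and -1.89, -1.76 and -1.88 in WT. It was higher in knockout by 0.39, again with no overlap (exact p = 0.1).

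The aspartate aminotransferases shifted the other way. The ratio of Got1 to Got2 was -1.69, -1.81 and -1.67 in knockout and -1.40, -1.56 and -1.41 in WT, lower in knockout with no overlap (difference -0.27, exact p = 0.1). The malate dehydrogenases did not separate: the ratio of Mdh1 to Mdh2 was -0.86, -0.89 and -0.79 in knockout and -0.60, -0.86 and -0.65 in WT (difference -0.14, exact p = 0.3). Adjusted by Benjamini-Hochberg over these 5 ratios, the exact p-values of 0.1 became 0.125 and that of 0.3 stayed at 0.3. Another 3 ratios of subunits were chosen after their values were seen and have no test. The ratio of Pccb to Pcca was 0.62, 0.66 and 0.57 in knockout and -0.83, -0.36 and -0.93 in WT. Counts of Pccb were thus 1.53 times those of Pcca in knockout and 0.612 times in WT. The ratio of Sdha to Sdhb averaged 1.66 ± 0.059 in knockout and 1.22 ± 0.073 in WT, and that of Bckdha to Bckdhb 2.90 ± 0.088 in knockout and 2.07 ± 0.12 in WT (SD, n = 3 each).

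**Figure D4:**
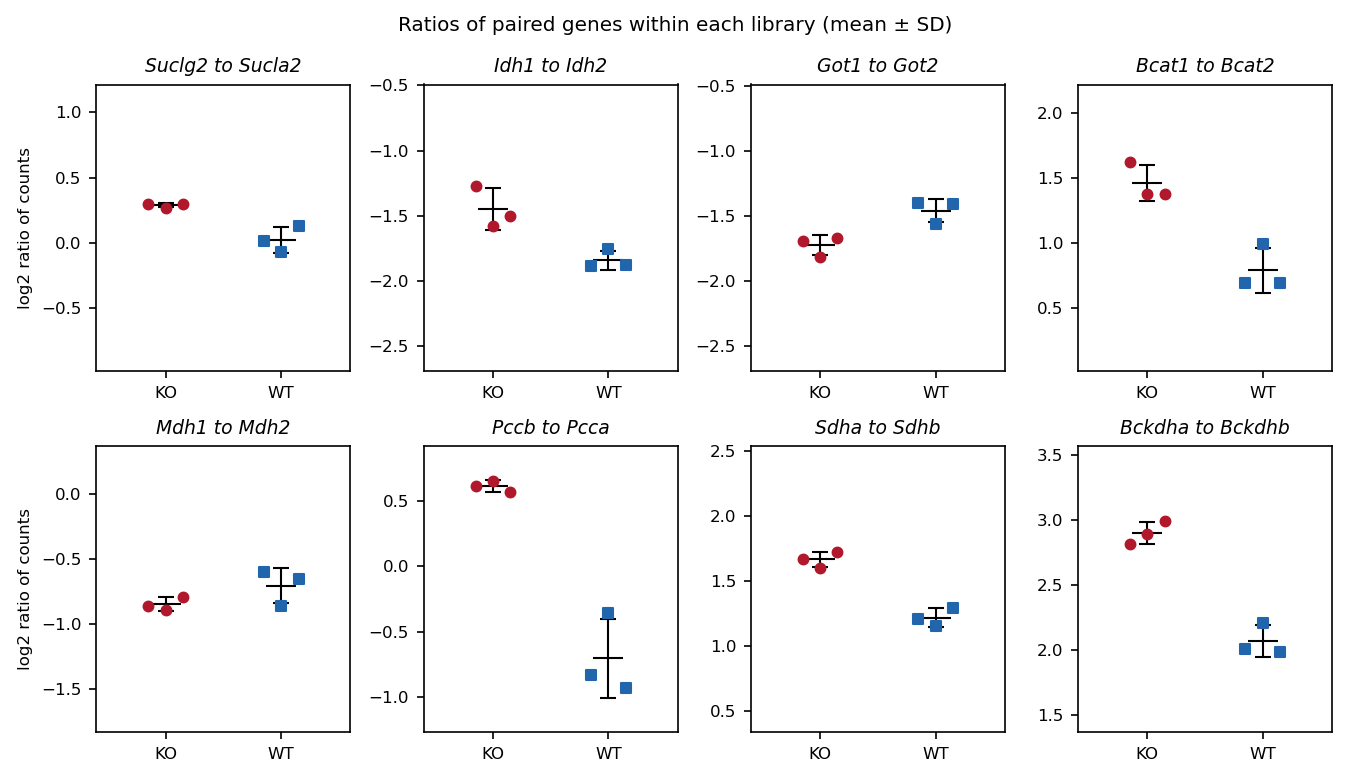
Log2 ratio of the counts of 2 genes within each library (points, replicates 1 to 3 from left to right), PDH knockout (KO, circles) left of WT (squares), with group mean ± SD; the vertical axes have equal length in log2 units but start at different values. The groups are apart in all panels except Mdh1 to Mdh2, and the gap is widest for Pccb to Pcca, which averages 0.62 in knockout and -0.71 in WT.

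Other genes of the same reactions were taken from a list of 39, of which 36 were tested. Of these, 11 fell (30.6%), 8 rose (22.2%) and the other 17 missed the threshold, shares near the 24.5% lower and 23.1% higher of all tested genes. The median over these 36 was -0.20 on the log2 scale. In glutamate and proline metabolism 3 of 10 genes rose and 1 fell, and among 15 further genes of branched-chain and propionate breakdown 6 fell and 3 rose. Aldh4a1, which forms glutamate in the breakdown of proline, was at 51.6 CPM in knockout and 23.5 CPM in WT (1.14 ± 0.09, edgeR adjusted p = 2.15e-05). Mmab, which makes the cobalamin cofactor of the Mut product, was at 35.7 CPM in knockout and 26.3 CPM in WT (0.44 ± 0.07, edgeR adjusted p = 0.000973). Bckdk, the kinase that inhibits the branched-chain oxo acid dehydrogenase complex, had 50.5, 47.2 and 52.3 CPM in knockout against 69.98, 66.5 and 63.8 CPM in WT (-0.42 ± 0.07, edgeR adjusted p = 0.000797). Complex II assembly factor gene Sdhaf3 fell (-0.48 ± 0.14, edgeR adjusted p = 0.0187) and Sdhaf4 was not called.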

How the data were processed

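RNA of 6 libraries, 3 PDH knockout and 3 WT, was read from 1 deposited table of expected counts, which the authors had estimated per gene and stored as whole numbers. Salmon, DESeq and DESeq2 appear in the submitters' processing notes, with neither version nor role. For the genome build and the annotation: not given in the sources used here. Every deposited row has at least 10 counts in at least 3 libraries. Of the 15452 gene IDs 15138 matched a symbol in GENCODE M21. Estimated counts can split reads between a gene and a near-identical copy, so levels of genes with such copies are uncertain. A stranded mRNA kit was used, per the labels' protocols.

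No rounding was needed. filterByExpr removed 91 genes. edgeR 4.0.16 (R 4.3.3) fitted genotype alone to all libraries, with TMM factors and robust dispersion, and SE is the log2 fold change over the root of F. Alternatives were other scalings, DESeq2 1.42.0, limma-voom (limma 3.58.1), other filters, no robust dispersion, a 1.2-fold null, the replicate number as a block and each library left out. After the data were seen, 3 were added: a fit without WT replicate 2 and knockout replicates 2 and 3, in which B cell markers were raised, those markers without Ighm as a covariate, and a fit without 27 entries that knockout replicate 2 had at over 5 times the level of both its fellow replicates. Ratios used a pseudocount of 0.5. The test was tried on simulated counts. Replicates of a group differed by more than sampling noise (chi-square per degree of freedom at least 24.05).

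Members and lists were chosen with earlier results of these data known. Values by library are given for the 12 called members with the largest change, the planned pairs, the complex II core and members called higher. Of other pathway genes the 2 with the smallest p in each direction are given. A gene that this rule takes and a listed marker are not reported here. Sdhaf3 and Sdhaf4 were chosen after their values were seen. Figures were drawn with matplotlib 3.10.9.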

Additional observations from a re-analysis of the deposited data

How the results depend on the processing

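Of the 26 called genes, 22 kept their call when any 1 library was left out, and the other 4, Ogdh, Idh1, Glul and Gpt2, are given with their values above. Under all 19 alternatives 17 kept their call, and 21 did when the test against a 1.2-fold change was left aside. That test called 2125 of all genes higher and 1856 lower, against 3548 and 3763 in the test against no change, and 15 of the 36 genes lower. It asks for a larger change by construction. Leaving out 1 library gave 2 to 3 of the 36 genes higher and 20 to 23 lower. Without the 3 libraries with raised B cell markers, with knockout replicate 1 assumed to vary like the WT libraries, 3 were higher and 21 lower, and the B cell marker covariate gave the same numbers. Leaving out the entries raised in knockout replicate 2 gave 3 and 23.

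Directions turned for 4 genes that were not called. Suclg2 was at 0.0034 with upper-quartile factors. Sdha was at 0.054 with upper-quartile factors and at 0.02 with library totals and with at least 50 counts in 3 libraries. Leaving out 1 library put Sdhaf2 between -0.022 and 0.04; it was at -0.022 without knockout replicate 3, -0.021 without WT replicate 3, -0.016 without the 3 libraries with raised B cell markers and -0.028 with the covariate. Bckdha was at -0.062 without those 3 libraries. The cause was not tested.

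Same-numbered libraries did not deviate together (correlations of -0.098, 0.093 and -0.259 for numbers 1, 2 and 3), and no library of number 1 or 3 correlated best with its own number. With the replicate number as a block, 3473 genes were higher and 3745 lower, and of the 36 genes 3 and 23. Each of the 36 genes had at least 112 counts in every library. Sums of the rarer cell markers rest on fewer counts.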
